A study of Drosophila melanogaster with 3 samples.

Results

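The microRNA genes of Drosophila melanogaster were examined for binding of Runt, a transcription factor of the RUNX family that acts in segmentation and sex determination. The members were all annotated hairpin precursors on the 6 chromosome arms whose symbol starts with mir-, 260 hairpins in all. The annotation holds 17423 other genes on these arms. Hairpins on the same strand with gaps of at most 10 kb were counted once, as 1 locus, which gave 203 loci, 181 of them with 1 hairpin and 22 with several. The rule for members uses the annotated name and no binding value.

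Chromatin came from whole embryos aged 0 to 16 h of a transgenic line that stably expresses Runt fused to GFP at its C-terminus, and was precipitated with an antibody against GFP (ChIP-seq). The labels give 1 group of 3 biological replicates, no second condition and no sex. The source label, the same for all 3 samples, names the strain run and an insertion targeting the D. melanogaster gene run. The promoter that drives the fusion, and whether the line lacks its own run gene, are not stated in the labels. Whole embryos mix all cell types and many stages, so a peak cannot be placed in a cell type or an hour. Each replicate list and the list called on the pooled replicates held 30000 peaks. The list that the authors filtered by irreproducible discovery rate (IDR) held 3065 peaks, which are the pooled peaks with the highest signal. Peaks are given by rank within a list, rank 1 being the highest signal value, and by the position of their summit. Read depth is unknown from these lists.

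MicroRNAs are short RNAs cut from a hairpin in a longer primary transcript, and they repress messenger RNAs that match their seed, bases 2 to 8 of the mature strand. Some hairpins lie in introns or exons of protein-coding genes and are made with that host's transcript, others in non-coding transcripts of their own. A few, the mirtrons, are short introns that splicing alone releases. Because primary transcripts can start far upstream, the start of the hairpin is not the start of transcription, and binding near a hairpin need not bear on its transcription.

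The mature strands of microRNAs with a Runt-GFP peak described below follow, because the seed is what a microRNA acts through and several of these loci hold hairpins with the same one. Each is read from the Release 6 genome at the mature coordinates of RefSeq, for the arm of the hairpin with the earlier miRBase record, in RNA letters, 5′ to 3′, with the seed in capitals.
mir-279: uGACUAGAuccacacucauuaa
mir-996: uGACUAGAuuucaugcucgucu
mir-9a: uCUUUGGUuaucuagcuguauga
mir-282: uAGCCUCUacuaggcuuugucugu
mir-ban: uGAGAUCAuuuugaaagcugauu
mir-13b-1: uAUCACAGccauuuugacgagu
mir-13a: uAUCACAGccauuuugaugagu
mir-2c: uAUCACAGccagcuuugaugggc
mir-92a: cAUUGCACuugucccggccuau
mir-92b: aAUUGCACuagucccggccugc
mir-375: uUUGUUCGuuuggcuuaaguua
mir-33: gUGCAUUGuagucgcauuguc
mir-277: uAAAUGCAcuaucugguacgaca
mir-34: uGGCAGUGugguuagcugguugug
Among these, mir-279 and mir-996 share a seed within 1 locus, as do mir-13b-1, mir-13a and mir-2c, and mir-92a and mir-92b. A mature strand was found in RefSeq for all 260 hairpins, with 224 distinct seeds. The widest family by this measure was the seed AUCACAG, the K-box family known for repressing genes that promote cell death, with 13 hairpins in 7 loci, of which 1, the mir-13b-1 to mir-2c locus, had an IDR summit within 5 kb, against a mean of 1.25 when the summits were shifted along their arms as described below. The seed AUUGCAC was carried by 6 hairpins in 2 loci, of which that of mir-92a and mir-92b had a summit, against a mean of 0.42. The seed GACUAGA was carried by mir-279, mir-996 and mir-286, at 2 loci, and the mir-279 and mir-996 locus had one.

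An IDR summit lay within 5 kb of a hairpin at 42 of 203 microRNA loci (20.7%, 95% Clopper-Pearson interval of 15.3 to 26.9 for counting error alone). When all summits were moved together along their arm by every possible step (circular shifts), the mean count was 35.5 loci, and 95% of shifts gave 25 to 47. The count therefore lay 1.18 times above the mean of the shifts and inside their range. Of the starts of all other annotated genes, 26.8% had an IDR summit within 5 kb, a higher share than that of the microRNA loci. Counted singly, 49 of 260 hairpins (18.8%) had one.

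The replicates gave nearly the same count. Among each replicate's own 3065 strongest peaks, 40, 44 and 41 loci had a summit in replicates 1, 2 and 3, or 20.5% ± 1.03 (SD, n = 3). The starts of other genes were reached in 27.9%, 26.8% and 27% of cases. Every replicate lay above its mean over shifts, by a ratio of 1.18 ± 0.066 (SD, n = 3), and inside the range of the shifts. In all 3 of these lists 29 loci had a summit, and all 29 were among the 42 of the IDR list.

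The longer lists reached most loci. A pooled summit lay within 5 kb of 152 loci (74.9%), against a mean of 132 and a range of 118 to 147 over shifts, and of 76.5% of other gene starts. Replicates 1, 2 and 3 reached 170, 159 and 158 loci with their full lists, where other gene starts stood at 84.2%, 81.5% and 77.3%. These 4 counts lay above the range of the shifts and near the share for gene starts. The best pooled peak of a microRNA locus had a median rank of 7588 over the 152 loci that had one, and that of other gene starts a median rank of 5212. No summit of any list lay within 5 kb of 16 loci, among them mir-285, mir-280 and mir-4951, which sits in the heat-shock RNA gene Hsromega.

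**Figure D1:**
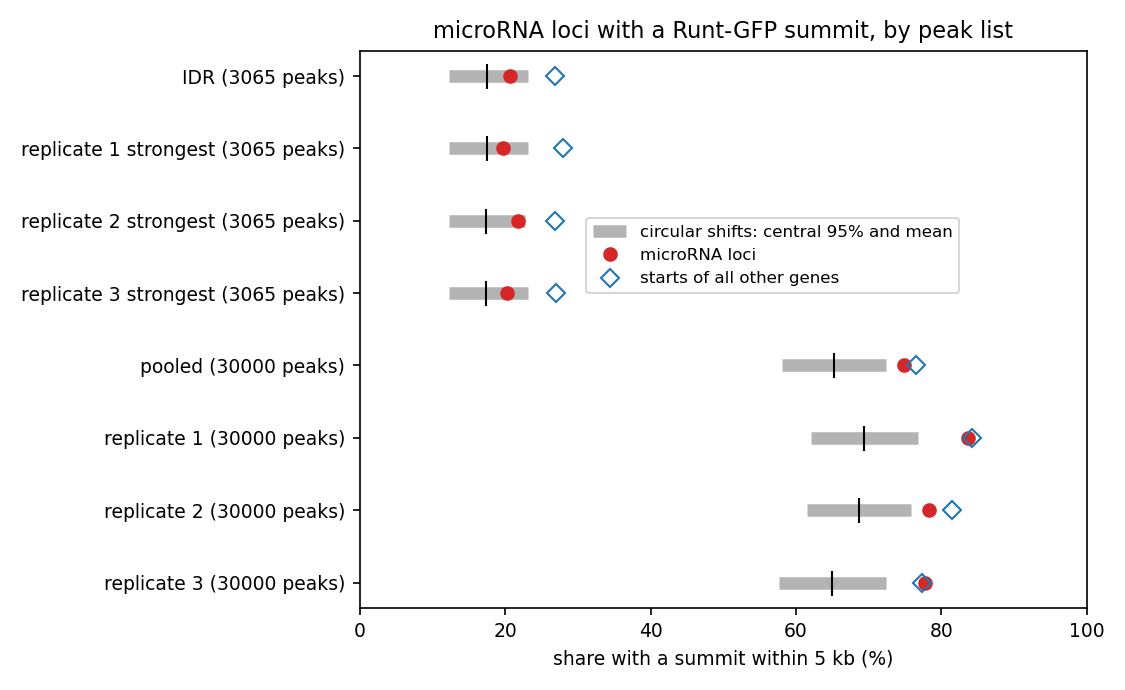
Share of the 203 microRNA loci (red points) with a summit within 5 kb in each peak list, in percent, beside the mean (black tick) and central 95% (grey bar) over circular shifts and the share of other gene starts (blue diamonds). For the 3065-peak lists the loci lie inside the grey bars and below the gene starts, and for the 30000-peak lists they lie above the bars.

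The hairpin's place was recorded as the intron or exon of a protein-coding host on the same strand, a non-coding host on the same strand, the opposite strand of a gene, or between genes. A locus whose hairpins differed in place took the first of these, in that order, that held for any of its hairpins. Loci with a non-coding host had the highest share, 10 of 32 (31.2%, exact interval 16.1 to 50), against a mean of 5.92 and a range of 2 to 10 over shifts. In the replicates' strongest peaks 11, 9 and 9 of these 32 loci had a summit. Starts of long non-coding RNA genes in general had an IDR summit within 5 kb in 23.1% of cases, inside the interval of the 32 loci. In 22 of the 32 loci the host is recorded in RefSeq under a primary-transcript name, and 8 of these 22 (36.4%, 17.2 to 59.3) had an IDR summit, against a mean of 4.14 and a range of 1 to 8.

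Hosts that encode proteins held more loci at shares closer to the shifts. Hairpins in introns of protein-coding hosts formed 89 loci, of which 18 (20.2%) had an IDR summit, against a mean of 15.5, and those in exons 35 loci, of which 7 (20.0%) did, against 6.07. On the opposite strand of a gene were 19 loci, of which 4 had a summit, against 3.46. Between genes lay 28 loci, of which mir-955, mir-11182 and mir-2496 had one (10.7%, exact interval 2.27 to 28.2), against 4.55. Grouped together, 35 of 156 loci with a host on the same strand had an IDR summit, and 7 of 47 without one. The latter count fell to 3 when replicate 2 or replicate 3 was left out, by keeping only IDR peaks matched among the strongest peaks of both other replicates. This kept only 2018 and 1986 of the 3065 peaks, and the count with a host fell as well, to 27 in both cases. Without replicate 1 (2147 peaks kept) 26 loci with a host and 6 without one had a summit. The intervals of the classes overlap, and no difference between them was tested.

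**Figure D2:**
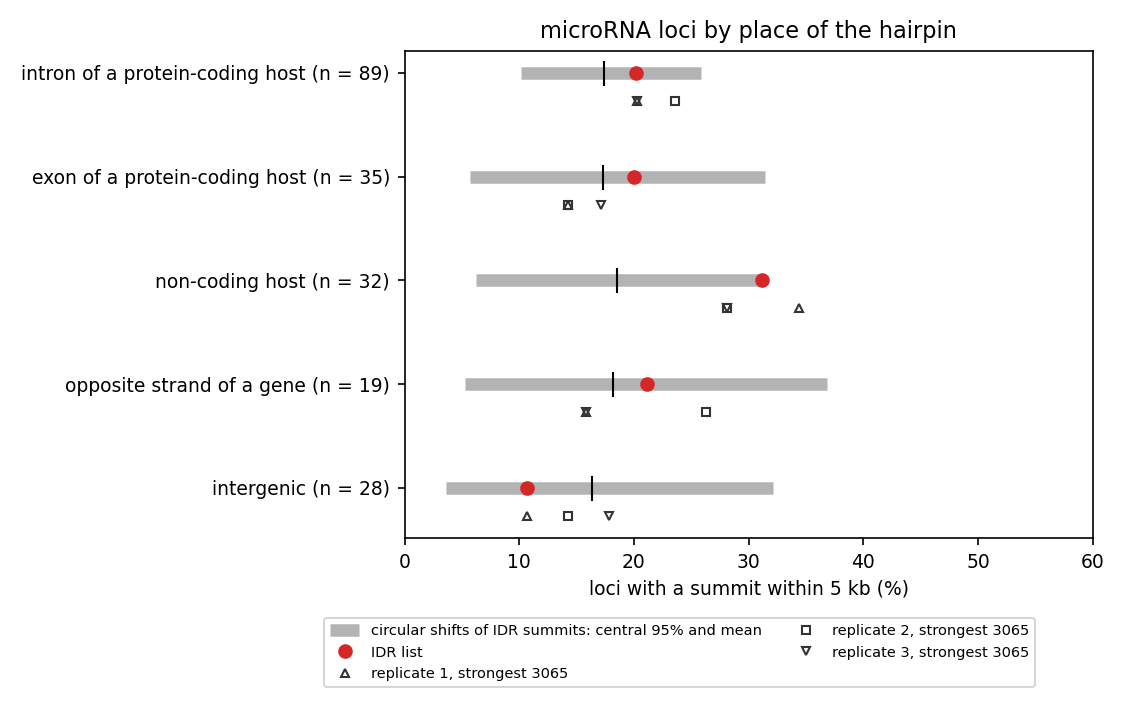
Share of loci in each class of hairpin position with a summit within 5 kb, in percent, for the IDR list (red) and each replicate's 3065 strongest peaks (open symbols), with the mean and central 95% of the IDR list over circular shifts. Loci with a non-coding host lie at 31.2%, the upper end of their grey bar, and intergenic loci at 10.7%, inside theirs.

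The strongest peak near any microRNA belonged to the locus of mir-279 and mir-996 (3R, plus strand), which act together in the specification of sensory neurons. Its summit ranked 71 in the IDR list, and 57, 82 and 78 in replicates 1, 2 and 3. It lay at position 29214433, 129 bases from the start of the host CR31044, their common primary transcript, and 1152 bases upstream of mir-279. All 3 replicates thus placed it among their leading peaks. A further summit, rank 534, lay 6 bases from the start of eEF1gamma, which encodes a translation elongation factor, 2886 bases from mir-996. It ranked 475, 419 and 917 in the replicates.

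At mir-9a (3L), which limits the number of sense organ precursors, the IDR summit ranked 369, and 326, 296 and 561 in the replicates. It lay 4297 bases upstream of the hairpin, nearest to the start of the non-coding gene CR44676 (356 bases) and 1802 bases from that of the host CR45916. The best pooled peak within 500 bases of the CR45916 start itself ranked only 9033. The summit at mir-282 (3L) ranked 514, and 646, 479 and 507 in the replicates, and lay 334 bases from an annotated start of the host CR43626 and 762 bases upstream of the hairpin. Bantam (mir-ban, 3L), which promotes growth and blocks cell death, had summits on both sides. That of rank 943 (728, 929 and 1270) lay 2012 bases beyond the hairpin, between genes, and that of rank 1942 (2364, 3217 and 1282) 1391 bases before it, in an exon of the host CR43334. A further IDR summit, rank 1949, lay at an annotated start of CR43334, more than 5 kb from the hairpin (best replicate ranks within 500 bases of a start, 1035, 2457 and 1489).

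The K-box locus of mir-13b-1, mir-13a and mir-2c (3R) had 1 IDR summit, rank 998, in an exon of its host CR45911, 1158 bases upstream of mir-2c. Replicate ranks were 1708, 975 and 940. At mir-375 (2L), whose counterpart in mammals is known from the pancreatic islet, the summit of rank 1876 (2773, 1771 and 2909) lay 35 bases from the start of CG13949 and 2101 bases from that of the host CR45345. At mir-276a (3L), which acts in olfactory memory, the summit of rank 2386 lay 61 bases from a start of the host CR46006, 1270 bases upstream of the hairpin, with replicate ranks of 2164, 2091 and 3296. The locus of mir-317, mir-277 and mir-34 (3R) had a summit of rank 2282, 1782 bases from mir-277, which controls amino acid breakdown. It lay in an exon of CR43459, the host of mir-277 and mir-34, whereas mir-317 lies between genes, outside that host. This summit ranked 2903, 5867 and 2253, so replicate 2 placed it below its 3065 strongest.

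On 2R, the microRNA mir-8, which controls body size through fat-body insulin signalling, and mir-14, which acts in fat metabolism and ecdysone signalling, each had summits at the host. For mir-8, the summit of rank 1827 (1728, 1570 and 2506) lay 142 bases from a start of the primary transcript CR43650. Summits of rank 2397 and 2500 lay 769 and 2303 bases from a start of CR43650, and were ranked unevenly, at 17115, 2191 and 1307 and at 2658, 1220 and 5750 in replicates 1, 2 and 3. For mir-14, the summit of rank 2346 (3063, 1492 and 1755) lay 15 bases from the start of the primary transcript CR43651. That of rank 1115 (763, 1168 and 1280) lay 1059 bases from it, upstream.

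**Figure D3:**
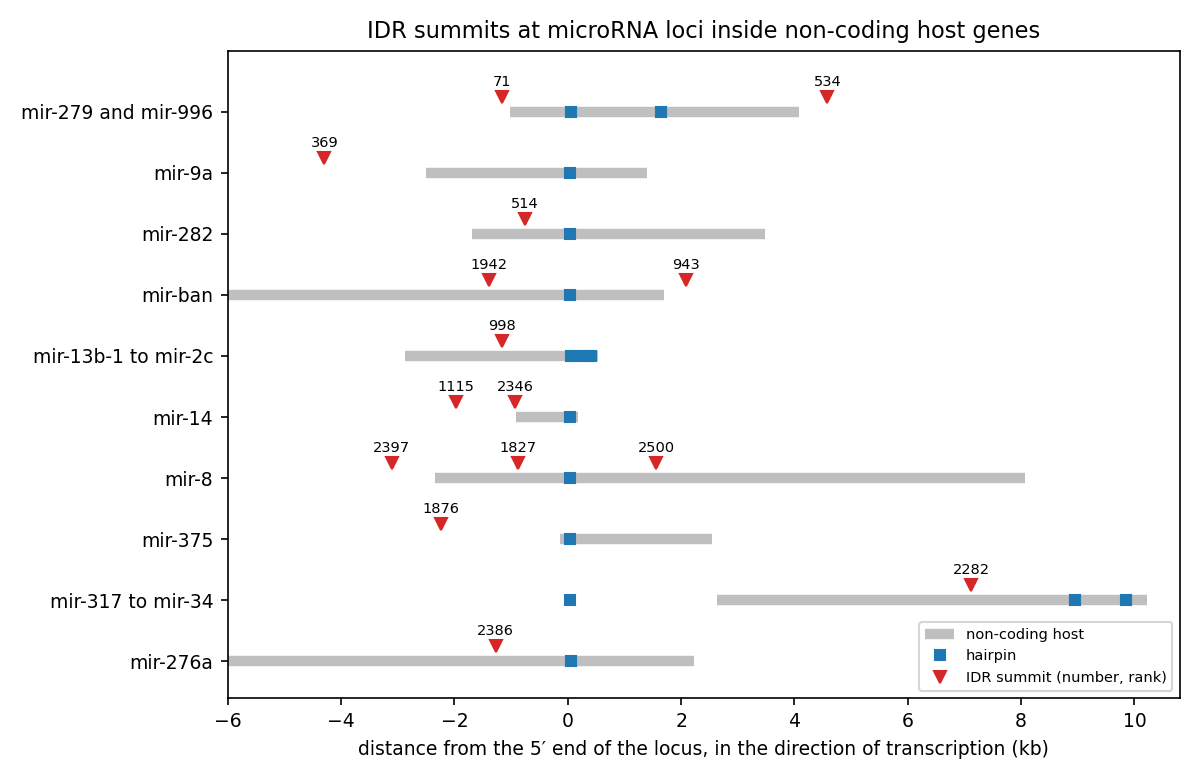
The 10 microRNA loci with a non-coding host and an IDR summit, aligned at the 5′ end of each locus and drawn in the direction of transcription, in kb; grey bars are the host genes (cut at the ends of the axis), squares the hairpins and triangles the summits with their rank. Most summits lie upstream of the first hairpin, within or just before the host.

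**Figure D4:**
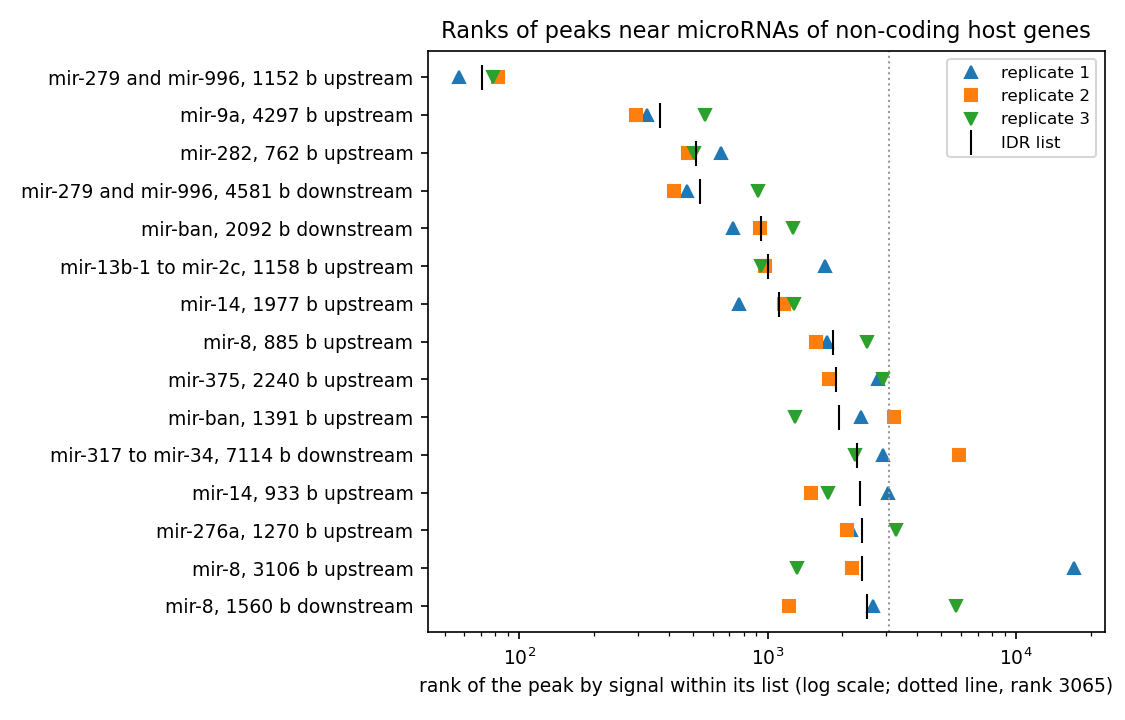
Rank of each of the 15 peaks near these loci in replicates 1, 2 and 3 and in the IDR list, on a log scale, where low ranks are strong peaks. The peak upstream of mir-279 ranks 57, 82 and 78, and the widest spread is at the mir-8 summit 3106 bases upstream, from 1307 to 17115.

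At the annotated starts of the non-coding hosts themselves, 7 of 33 host genes had an IDR summit within 500 bases (21.2%, exact interval 8.98 to 38.9), against 5.45% of all long non-coding RNA genes. Each replicate's strongest peaks marked 6, 7 and 6 of the 33. The 7 were the hosts of mir-279, bantam, mir-282, mir-8, mir-14, mir-276a and mir-4951. The last of these hosts, Hsromega, had its summit (rank 2201) far from the hairpin, outside the 5 kb window. Of the 22 named primary transcripts 5 were marked, and 5 in every replicate. These hosts are long, with a median of 6494 bases against 662 for long non-coding RNA genes in general, and the part of length in this difference was not tested.

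Among the 128 protein-coding host genes, 27 had an IDR summit within 500 bases of a start (21.1%, exact interval 14.4 to 29.2), against 11.4% of all protein-coding genes. Replicates gave 25, 30 and 28. The protein-coding hosts too were longer than most, with a median of 14094 bases against 2166, and had a median of 2 annotated starts against 1. Among them were spi, which encodes an EGF receptor ligand and hosts the mir-2a-2 to mir-2b-2 locus, and Btk, host of mir-2b-1, neither of which had an IDR summit within 5 kb of its hairpins.

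Several protein-coding hosts carried strong peaks near their hairpin. The second strongest near any microRNA locus, rank 150 (420, 141 and 124), lay 351 bases from a start of CG5953, the host of mir-4943 (2L), and 4737 bases upstream of the hairpin. At mir-92a and mir-92b (3R), known from neural stem cells, the summit of rank 709 (910, 1105 and 545) lay 208 bases from a start of the host jigr1 and 438 bases beyond mir-92a. At mir-33 (3L), a regulator of fat metabolism, the summit of rank 800 (1255, 1374 and 714) lay 563 bases from a start of its host SREBP, which encodes the sterol regulatory element binding protein. The replicates ordered these peaks alike, with CG5953 before jigr1 and jigr1 before SREBP in each.

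Tis11, a gene for messenger RNA decay that hosts mir-9377 (X), had intronic summits of rank 416 (227, 675 and 503) and 1720 (2879, 1007 and 2695), 1332 and 343 bases from the hairpin. The kinase gene Tlk, host of mir-4962 (X), had summits of rank 720 (801, 613 and 892) and 1460 (1452, 1121 and 2762). The weaker one was the only IDR summit inside a hairpin, 51 bases into mir-4962 and 1374 bases from the nearest Tlk start. At mir-4972 (2L) the summit of rank 740 (981, 679 and 512) lay 369 bases from a start of for, which encodes a cyclic GMP-dependent kinase. At mir-9382 (2L) that of rank 592 (619, 448 and 752) lay 123 bases from a start of MRP, a transporter gene.

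Elsewhere the nearest start belonged to a neighbour. The mirtron mir-1006 (2L), in an intron of VhaSFD, had summits of rank 275 (443, 383 and 205) and 1985, both nearest to Cyt-c-p, which encodes cytochrome c. The mirtron mir-1004 (2L) had summits of rank 471 and 2336, the first 309 bases from the start of the zinc-finger gene bowl. That first summit ranked 579 and 340 in replicates 1 and 2. No peak of replicate 3 overlapped it, although the best peak of replicate 3 within 5 kb of the hairpin ranked 633. At mir-87 (2L), which acts in dendrite regrowth and lies opposite CR45949, the summit of rank 356 (588, 359 and 299) lay 24 bases from the start of CG4709. The intergenic mir-955 (3L) had summits of rank 296 (412, 238 and 356), 839 and 3050, all at starts of CG14968 or ZnT63C. The mir-281 locus (2R), in an intron of the antizyme gene Oda, had summits of rank 890 (738, 992 and 1048), 2336 bases from mir-281-1, and 2607 (1199, 3679 and 5789). The latter lay 40 bases from the start of the splicing gene SmD3, and also 203 bases from a start of the host Oda. Of the 42 loci with an IDR summit, 35 had a host on their strand. Of these, 23 had a summit whose nearest annotated start was that of the host, 8 with a non-coding and 15 with a protein-coding host. No distance limit was set, and such summits lay from 8 bases (mir-2493) to 6066 bases (mir-9377) from the host start. The same share over all IDR summits was not counted.

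Few summits lay close to a hairpin. Within 1 kb, 11 loci had an IDR summit, against a mean of 9.57 over shifts, and within 500 bases 5 loci did, against 5.37. Besides mir-282, mir-92a, mir-9377, mir-4962, mir-8 and mir-14, the loci within 1 kb were mir-2491, mir-9378, mir-2496, mir-4968 and mir-9374. At mir-2491 (X), in an intron of the gastrulation gene fog, the summit of rank 2188 (1744, 2928 and 3452) lay 142 bases from the hairpin. At mir-9378 (2L), in an intron of CG17124, that of rank 2360 lay 195 bases from it and ranked 2030, 1630 and 8032. The intergenic mir-2496 (X) had summits of rank 2042 and 3027, which fell in the same peak of each replicate (2748, 2350 and 1706). At mir-4968 (3L), 3 summits, of rank 1645, 2577 and 2896, lay in its host Mob2, the last 141 bases from a start and ranked 4676, 8526 and 1568. Together mir-955, mir-4968 and mir-8 were the loci with 3 IDR summits.

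At a wider window the count rose further above the shifts. Within 10 kb, 80 loci had an IDR summit (39.4%), against a mean of 58.8 and a range of 46 to 72 over shifts. The same window held a summit for 41.3% of other gene starts. Loci with a non-coding host numbered 18 of 32 in this window, and 8 of 32 within 2 kb, against means of 9.65 and 2.88. Within 500 bases they numbered 0 of 32, against 0.935. Those with a protein-coding host numbered 50 of 124 within 10 kb and 10 within 2 kb, against 35.9 and 10.2. Loci with no host on their strand numbered 12 of 47 and 1, against 13.2 and 3.94.

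More summits lay upstream than downstream of the 5′ end of a locus, a difference that was not tested. Within 5 kb upstream lay 39 IDR summits and within 5 kb downstream 20, where the shifts gave a mean of 23.3 for either side. The share upstream was 66.1%, and 54.2%, 63.1% and 70% in the strongest peaks of replicates 1, 2 and 3 (62.4% ± 7.90, SD, n = 3). Replicate 1 was the least uneven, with 32 upstream and 27 downstream. In the pooled list 314 were upstream and 245 downstream, against a mean of 226. Loci with a non-coding host had 11 upstream and 3 downstream, against 3.76, and 8 of the 11 were in the 2 bins nearest the hairpin.

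**Figure D5:**
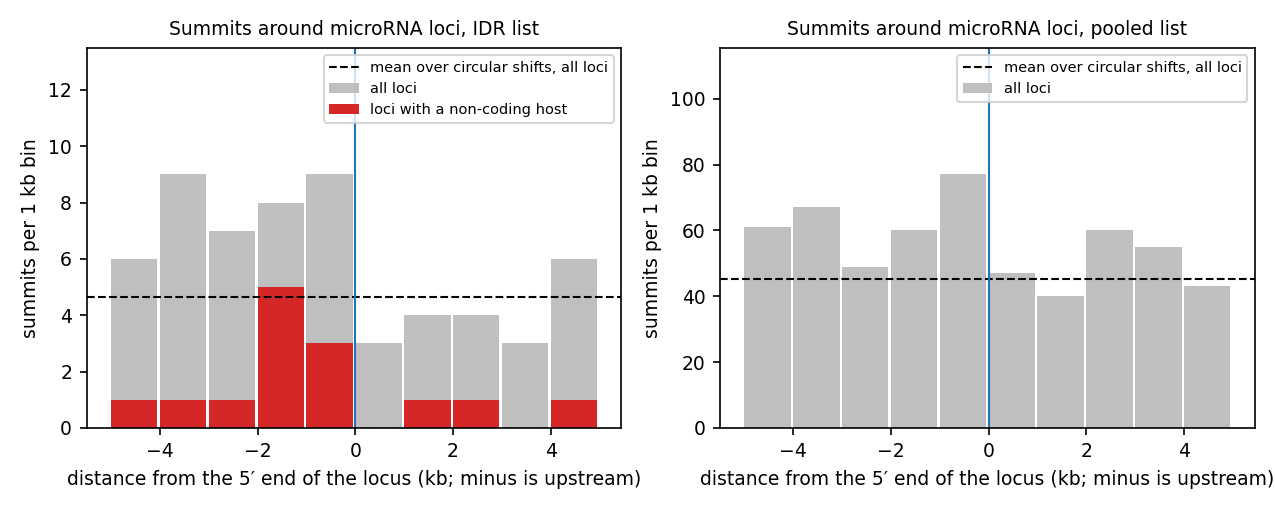
Number of summits in 1 kb bins by distance from the 5′ end of the locus, for the IDR list (left, loci with a non-coding host in red) and the pooled list (right), with the mean over circular shifts as a dashed line. In the IDR list every upstream bin holds 6 to 9 summits, above the mean of 4.65, and the downstream bins hold 3 to 6.

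Promoters held most of the summits near microRNAs. Of the 61 distinct IDR summits, 36 (59.0%) lay within 500 bases of an annotated start, 16 (26.2%) in introns, 5 (8.2%) between genes and 4 (6.56%) in exons. Over all IDR summits the shares were 44.9% at promoters, 38.5% in introns, 14.1% between genes and 2.48% in exons. The 4 exonic summits were those at bantam, mir-8, the mir-13b-1 to mir-2c locus and the mir-317 to mir-34 locus, each in a non-coding host.

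The RUNX recognition sequence TGNGGTN, where both N are C or T, was searched on both strands within 50 bases of each summit. It occurred at 5 of 61 summits near microRNAs (8.20%, exact interval 2.72 to 18.1) and in 5 of 122 windows of the same width 500 bases to either side (4.10%). Within 25 bases the shares near microRNAs were the same, 3.28% at summits (2 of 61) and 3.28% in flanks (4 of 122). Over all IDR summits they were 5.35% and 1.57%. Within 50 bases, 3.65% of the flanks of all IDR summits held the sequence, and the summit share was 9.36%, inside the interval above. In the strongest peaks of the replicates it was 4.76%, 6.15% and 6.45% (5.79% ± 0.902, SD, n = 3), and 6.56% of the 564 pooled summits near microRNAs held it, against 7.66% of all pooled summits. The flanks of these replicate summits held it in 7.14%, 3.85% and 5.65% of windows, so replicate 1 had a lower share at summits than beside them. The pooled flanks held it in 3.19%. A match describes these letters and is not evidence of contact.

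Windows of 101 bases around 3 of these summits show where the sequence lies. They are plus-strand sequence of the Release 6 genome, whose arm lengths equal those of dm6, with the consensus or its reverse complement in capitals. They are in an intron of the Wnt deacylase gene Notum, host of mir-4941 (3L:16026227-16026327), in an intron of bun, host of mir-967 (2L:12458799-12458899), and at a promoter of the nuclear receptor gene Hr39, host of mir-9374 (2L:21237555-21237655).
mir-4941: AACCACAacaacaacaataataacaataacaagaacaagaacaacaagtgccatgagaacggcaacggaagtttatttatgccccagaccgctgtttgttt
mir-967: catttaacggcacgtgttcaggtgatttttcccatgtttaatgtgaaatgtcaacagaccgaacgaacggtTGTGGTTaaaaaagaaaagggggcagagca
mir-9374: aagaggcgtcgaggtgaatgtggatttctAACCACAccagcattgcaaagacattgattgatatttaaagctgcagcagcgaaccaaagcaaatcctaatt
The match lies at the edge of the window at mir-4941 and nearer its middle at mir-967 and mir-9374. These peaks ranked 1170, 1761 and 2447, none among the strongest near microRNAs. The mir-9374 summit was weak in single replicates, at ranks 4839, 7110 and 2611. The mir-4941 summit ranked 3133, 611 and 1767.

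Both summits upstream of mir-14 also held the consensus, and the summits at mir-279, mir-9a, mir-282, bantam and mir-8 did not. Near loci with a non-coding host 2 of 15 summits held it, and near those with a protein-coding host 3 of 35.

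By function, microRNAs of growth, metabolism and hormone signalling had an IDR summit at 5 of 8 loci, namely mir-14, mir-8, mir-33, mir-375 and the locus of mir-277, against a mean of 1.52 over shifts and 20.7% of all loci. The strongest peaks of replicates 1, 2 and 3 gave 5, 4 and 5. The exceptions were mir-275 with mir-305, mir-278 and mir-315. The best pooled peak near mir-275 and mir-305, the latter known from gut stem cells, ranked 7548. That near mir-278, a regulator of energy balance, ranked 20170, and mir-315, an activator of Wingless signalling, had no pooled summit within 5 kb. In the list of the nervous system and sense organs 3 of 11 loci had an IDR summit (mir-279 with mir-996, mir-9a and mir-276a), against 2.10, and 3, 3 and 2 in the replicates. The lists were chosen with earlier results of these data known, and bantam is on none of them, so these counts describe the lists only.

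The other neural loci had weaker peaks within 5 kb of their hairpins. The neuronal mir-124 had its best pooled peak within 5 kb at rank 24052, and its best in the replicates ranked 27215, 15804 and 24449. Its locus also holds mir-287, whose best pooled peak ranked 7643. Best pooled ranks were 6973 at mir-bft (mir-263a), which protects bristle organs, 10433 at mir-276b, 10679 at mir-7, which acts in photoreceptor formation, 14681 at mir-184, 15293 at mir-210 and 22177 at mir-190. At mir-263b no pooled summit lay within 5 kb, and its best peaks in replicates 1 and 2 ranked 27492 and 17554. Within 500 bases of a start of the non-coding host, the best pooled ranks were 3698 for mir-bft, 5122 for mir-184 and 11520 for mir-124. Each of these was stronger than any pooled peak within 5 kb of that hairpin. For mir-276b the rank at the host start, 14133, was weaker than that near the hairpin.

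Of the 4 loci of Hox microRNAs, which lie within the homeotic gene complexes, 0 had an IDR summit, against a mean of 0.684 over shifts, a count too small to tell apart from the general share. Their best pooled peaks ranked 5803 at mir-10, 16020 at mir-993 and 8461 at mir-iab-4 and mir-iab-8, which lie on opposite strands of the same site and share that peak. The muscle list had 0 of 2, against 0.38. The muscle microRNA mir-1 had its best pooled peak at rank 9332, and mir-133, known for muscle in vertebrates, at rank 24921. Within 5 kb of mir-1 the best peaks of replicates 1, 2 and 3 ranked 7267, 10140 and 8831, all below the strongest 3065. These need not be the same peak. The pooled peak lay 453 bases from the hairpin, and rank 8831 of replicate 3 lay at the start of the host CR45361, 3042 bases upstream of mir-1.

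The mir-309 cluster of 8 hairpins on 2R, which clears maternal messenger RNAs in the early embryo, had no pooled summit within 5 kb and peaks of rank 29627 and 22603 in replicates 1 and 2. As 1 locus it had a mean of 0.18 over shifts of the IDR list. The let-7 complex (mir-100, mir-let7 and mir-125), which times the larval to adult transition, had none in the pooled list either, with ranks of 26945 and 13346 in replicates 1 and 2. In the same list of timing and ageing, mir-34 lies in the locus with the summit near mir-277, which made 1 of 2 loci, against 0.487. No peak of replicate 3 lay within 5 kb of the mir-309 cluster or of the let-7 complex.

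Among the other K-box loci the best pooled peak ranked 4356 at mir-308, in the ribosomal protein gene RpS23, 6766 at mir-2b-1, 9871 at mir-11 and 15021 at mir-2a-2 to mir-2b-2, and mir-13b-2 had none. The mir-308 locus was called by the strongest peaks of replicate 2 (rank 2533), not by those of replicates 1 and 3 (3709 and 5560). The locus from mir-310 to mir-992, of the mir-92 seed family, had its best pooled peak at rank 3473, just outside the IDR list. The best peaks of replicates 1, 2 and 3 within 5 kb of this locus ranked 7054, 3034 and 2857. Over all lists 10 of 35 loci had an IDR summit (28.6%), against 6.56 over shifts, and 32 of the 168 loci on no list (19.0%), against 28.9.

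By arm, 13 of 41 loci on 2L had an IDR summit, 7 of 41 on 2R, 8 of 31 on 3L, 6 of 49 on 3R, 8 of 39 on X and 0 of 2 on chromosome 4. The means over shifts ran from 5.45 on 3L to 8.59 on 3R for the large arms and were 0.0722 on chromosome 4. The 2L count was the farthest above its mean, 7.95, and that of 3R lay below its own. Of the 22 loci with several hairpins 6 (27.3%) had an IDR summit, against a mean of 4.49 over shifts, and of the 181 with a single hairpin 36 (19.9%), against 31.0. Of the 6 loci with 4 or more hairpins 1 had a summit, against 1.25. It was mir-972 to mir-979 on X, with 12 hairpins, where the summit of rank 2604 lay at the start of car and ranked 1479, 10513 and 3540 in the replicates.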

How the data were processed

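GFP-tagged Runt was precipitated from whole embryos in 3 biological replicates, per the labels. Peaks on dm6 were called by the authors for each replicate and for the pooled replicates against 1 shared control, per the readme files, so the replicate lists are not fully independent. The aligner, caller and IDR cutoff were not given in the sources used here. Deposited by the authors, the signal value, of unknown scaling, ranked peaks within a list, and the deposited −log10 q-value was not used to rank them. Depth is unknown, so intervals cover counting error only.

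Hairpins, hosts and starts came from Ensembl release 115, transposons and mature-product entries left out. The 2 hairpins outside the 6 arms were not used here. Mature coordinates and synonyms came from RefSeq. A host contains the hairpin on its strand. A promoter is within 500 bases of a start. Replicates were compared by their full lists and by their 3065 strongest peaks. For an IDR summit near a hairpin, a replicate rank is that of the best overlapping peak (at least 1 base). At loci without an IDR summit it is the best rank within 5 kb, which need not belong to the same peak as the pooled rank. Circular shifts were enumerated exactly, along each arm, as a description with no p. With 1 group there is no test over samples. The counting was checked on simulated peaks. Other distances, peak lists, definitions of locus and host, motif windows and leaving out each replicate were tried.

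Loci named were the 15 with the strongest IDR peak, those with an IDR summit within 1 kb or with 3 IDR summits, and all members of 8 lists of microRNAs by function or seed; others singled out were chosen after their values were seen. The members and lists were chosen with earlier results of these data known. Analyses used Python 3.11.15, numpy 2.4.6, scipy 1.17.1 and matplotlib 3.10.9.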

Additional observations from a re-analysis of the deposited data

How the results depend on the processing

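The ratio to the shifts was above 1 under 11 alternatives, but 0.931 within 500 bases, where 5 loci stood against a mean of 5.37. It was 1.11 within 2 kb, 1.36 within 10 kb, 1.11 in the 1532 strongest IDR peaks, 1.09 in a pooled list of double the length, 1.10 with every hairpin counted singly, and 1.20 to 1.22 without single replicates. Counts follow distance and list length by construction. Loci with a summit numbered 11 within 1 kb, 19 within 2 kb, 80 within 10 kb, 22 in the 1532 peaks, 64 in the doubled list and 30 to 32 without single replicates (2147, 2018 and 1986 peaks kept). Loci with a host then numbered 10, 18, 68 and 20, and 26 to 27 without single replicates. Loci without a host numbered 1 within 1 kb and within 2 kb, 12 within 10 kb, 2 in the 1532 peaks, 13 in the doubled list, 17 with only protein-coding hosts and 3 to 6 without single replicates. The RUNX share was 3.28% within 25 bases, 11.5% within 100 bases and 7.69% to 9.30% without single replicates, on few summits. The upstream share was 57.9% to 67.4% without single replicates. No paired analysis was possible because there is only 1 group. The replicates' number, 3, the shared control and unknown depth limit the precision.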
